A study of Mus musculus with 2 samples.

Results

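Expression of G protein-coupled receptor genes was examined in sorted lung epithelium of adult mice, with 1 RNA-seq library per genotype. The genes were chosen by symbol and level: symbols of the Gpr, Gprc, Adora, Adra, Adrb, Ptger, Ptgr, Ptgfr, Lpar, S1pr, P2ry, F2r, Fpr, Chrm, Ednr, Vipr, Calcrl and melanocortin receptor (Mc1r to Mc5r) families were kept when their level, FPKM (fragments per kilobase of transcript, scaled to sequencing depth) summed over the entries of a gene, was at least 0.5 in either library. Of 166 matching symbols among 22072 genes, 49 met this level, or 29.5%, against 52.8% of all genes. At this level were 47 of the 49 in the library labelled Mst1/2-deleted and 45 in the control library, with 43 in both. The choice therefore rests on the levels themselves, so the levels are given as a description.

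The library labelled Mst1/2-deleted came from mice carrying Scgb1a1-rtTA, tetOCre, Mst1-flx/flx and Mst2-flx/flx, in which doxycycline lets a transactivator driven by the club cell Scgb1a1 promoter switch on Cre. The control library came from mice with tetOCre and both floxed genes but no Scgb1a1-rtTA. Both groups were adult, received doxycycline food (625 mg/kg) for 16 days, and were sorted for lineage-negative, CD326-positive cells with intermediate CD24, a gate the submitters chose to enrich airway secretory cells that lack cilia. RNA of 4 mice was pooled per library, so there is no spread between replicates, no p-value is given, and the transactivator, active Cre and the deletion cannot be told apart. Intervals are 95% intervals for counting error only, from approximate read numbers.

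G protein-coupled receptors span the membrane with a bundle of helices and pass the binding of hormones, lipids, nucleotides or cleaved peptide tethers to heterotrimeric G proteins inside the cell. Receptors that act through Gs raise cyclic AMP, those that act through Gi lower it, and those that act through Gq open calcium stores. Mst1 and Mst2 are upstream kinases of the Hippo pathway, which holds back the coactivators Yap and Taz, and receptors for lysophosphatidic acid and sphingosine 1-phosphate are known in cultured cells to act on Yap and Taz through Gna12 and Gna13.

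Symbols alone did not make all 49 genes receptors. By textbook function 11 encode other proteins: Ptgr1 and Ptgr2 are prostaglandin reductases, Gpr89 is a Golgi membrane channel protein, Gpr172b is listed by RefSeq as the riboflavin transporter Slc52a2, Gpr137b-ps is a pseudogene, and Gpr107, Gpr108, Gpr137, Gpr137b, Gpr155 and Gpr180 are multispan membrane proteins not established as acting through G proteins. The other 38 symbols name receptors. One of these, Adora3, the adenosine A3 receptor gene, is doubtful. Its 3 entries sum to FPKM of 0.982 in the library labelled Mst1/2-deleted and 0.384 in the control library. Matched by transcript accession to RefSeq, the entry that is Adora3 was near 0 in both, while the entries that carry the signal belong to Tmigd3. The spans of the Tmigd3 entries cover the whole Adora3 entry. The Adora3 values were therefore assigned to Tmigd3 transcripts, and they rest on how reads were shared between overlapping entries. RefSeq now lists Gpr56 as Adgrg1, Gpr116 as Adgrf5, Gpr126 as Adgrg6, Gpr125 as Adgra3, Gpr133 as Adgrd1, Gpr30 as Gper1 and Gpr77 as C5ar2.

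The reads on listed transcripts came to about 393 Mb of sequence in the library labelled Mst1/2-deleted and 413 Mb in the control library, and approximate reads per member ran from 11 to 6796. The deleted genes did not settle the label: Stk4 (Mst1) had FPKM of 4.71 in the library labelled Mst1/2-deleted and 5.38 in the control library, and Stk3 (Mst2) 7.09 and 7.28, and the sources used here do not say which exons are deleted. The sorted cells were epithelial by Epcam (CD326), at FPKM of 31.0 and 28.2, and Cd24a, at 116 and 127. Beside the gate's aim of airway secretory cells, the club cell genes Cyp2f2, at FPKM of 5305 and 4694, and Cbr2, at 3803 and 5224, stood among high type 2 cell genes such as Sftpc, at 10270 and 7888. Scgb1a1, the main club cell gene, is listed at 0 in both libraries as a failed estimate and cannot be ranked with them. Markers of cells outside the secretory and alveolar types were lower but differed between the libraries. Of 14 leukocyte markers 11 reached FPKM of 0.5, with summed levels of 10.3 in the library labelled Mst1/2-deleted and 19.7 in the control library and 5 lower by 1.5-fold or more; of 11 endothelial markers 3 did, summing to 5.999 and 10.7, with 1 lower; and of 11 mesenchymal markers 7 did, summing to 8.42 and 19.6, with 2 lower. Of 12 ciliated cell markers 10 did, summing to 56.3 and 34.9, with 3 higher; of 7 neuroendocrine markers 6 did, summing to 15.7 and 18.5, with 0 apart; and of 7 tuft cell markers 1 did, at 3.49 and 1.63, with Pou2f3, Il25 and Chat at 0 in both.

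A few receptors made up much of the summed level. Gprc5a, Gpr56 and Gpr116 together held 54.0% of the summed FPKM of the 49 genes in the library labelled Mst1/2-deleted and 43.5% in the control library. Gprc5a was the highest in both libraries, above 98.4% and 97.3% of all genes at FPKM of 0.5 or more. Of the 49 genes, 35 reached FPKM of 1 in either library, 12 reached 5 and 4 reached 20. The sum over all 49 was FPKM of 299.3 and 257.7, or 0.198% and 0.177% of the summed FPKM of all genes.

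**Figure D1:**
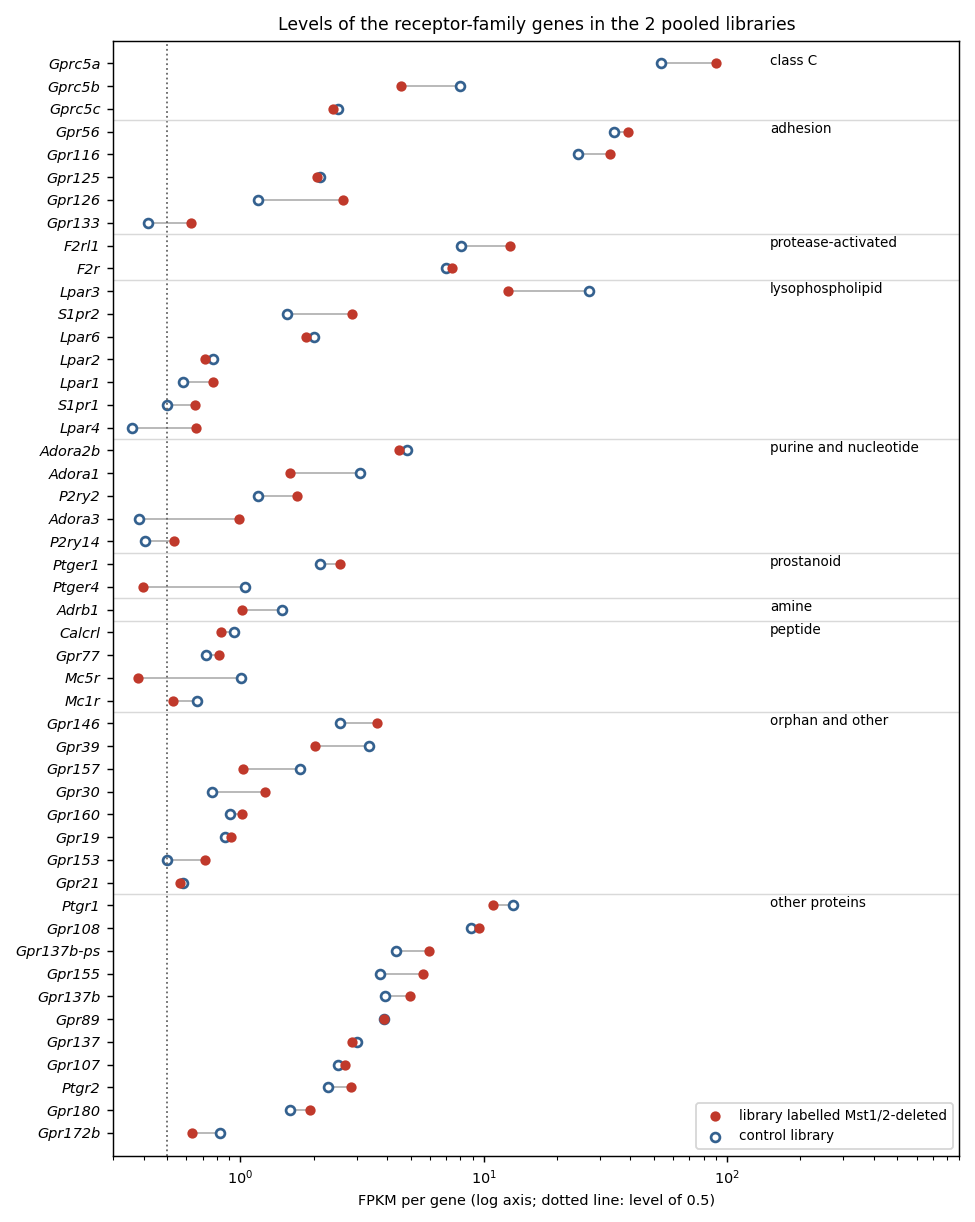
FPKM of 48 of the 49 genes (log axis) in the library labelled Mst1/2-deleted (filled) and in the control library (open), grouped by receptor class, with 1 pooled library each and no error bars. Gprc5a, Gpr56 and Gpr116 lie above 24 FPKM in both libraries, and most other genes lie under 10.

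The comparison asked which of these genes differed between the libraries. A gene was counted as apart when its log2(FPKM + 1) differed by at least 1.5-fold, a measure in which the added 1 shrinks the difference of genes at low level. Of the 49 genes, 4 had the higher level in the library labelled Mst1/2-deleted (Gprc5a, F2rl1, S1pr2 and Gpr126) and 3 were lower (Lpar3, Gprc5b and Adora1), together 14.3%. Of all 11652 genes at FPKM of 0.5 or more, 2.75% were higher and 2.51% lower, together 5.27%. Among those with a transcript of at least 300 bases, a limit chosen after seeing the data, the shares were 2.42%, 2.08% and 4.5%. The median log2 difference of the 49 genes was 0.08 and that of all these genes 0.06. All 7 were among the 27 members that reached FPKM of 2, where 3.08% of all genes were higher and 2.48% lower, together 5.56%. When the scale of the libraries was set so that the median of all genes was 0, F2rl1 (log2 difference 0.54) and S1pr2 (0.54) were no longer past 1.5-fold and Gpr39 was, which gave 2 higher and 4 lower. In RNA of many sorted cells, fewer cells of a type and less RNA per cell cannot be told apart.

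**Figure D2:**
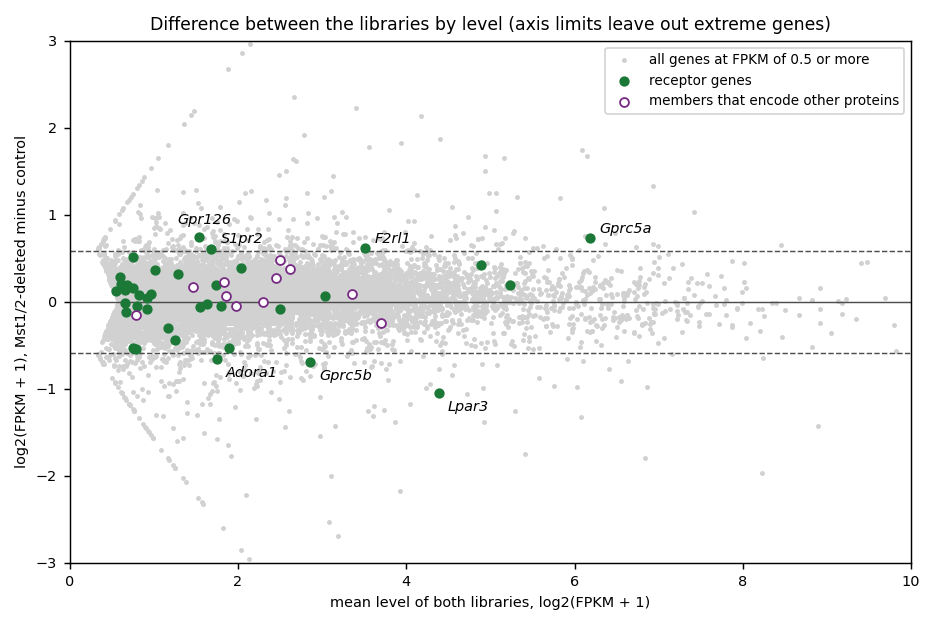
Difference of log2(FPKM + 1), library labelled Mst1/2-deleted minus control, against the mean level of both libraries, for the 37 receptor genes shown (filled), members that encode other proteins (open) and all genes at FPKM of 0.5 or more (grey), with dashed lines at 1.5-fold. The 7 named receptors lie beyond the dashed lines, and Lpar3 is the only one beyond 2-fold.

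The class C receptors went in different directions. Gprc5a (chr6:135015680-135034726, mm9), a retinoic acid-induced orphan receptor known as a tumour suppressor in mouse lung, had FPKM of 89.7 in the library labelled Mst1/2-deleted and 53.7 in the control library. That is a ratio of 1.67 (1.59 to 1.75), and its share of the summed FPKM of the 49 genes was 30.0% and 20.8%. Gprc5b (chr7:126115554-126138725), a relative with no settled ligand, had FPKM of 4.56 and 7.97, which is 1.75-fold lower (1.57 to 1.95). Its locus overlaps that of Iqck, at FPKM of 1.99 and 2.23, and strand is not given, so reads of Iqck can enter its value. Gprc5c, the third of this family at the level, had FPKM of 2.40 and 2.52, with a ratio of 0.953 (0.794 to 1.14). Gprc5d, whose locus lies 21.3 kb from that of Gprc5a, was listed at 0.0234 and 0.148, far under Gprc5a. Gprc5a is also used as a marker of alveolar type 1 cells. Of the 17 other type 1 markers at FPKM of 0.5 or more, 13 were at least 1.5-fold higher and 0 lower, with summed FPKM of 522 and 246, and none of the list at 0 in both libraries; the part of these cells in the value of Gprc5a was not tested.

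Adhesion receptors carry long extracellular regions that bind matrix and neighbouring cells. Of the 5 at the level, 4 had a log2 difference above 0 and 1 passed 1.5-fold. Of all 11652 genes at the level, 7182 also lay above 0, so most genes shared this direction. Gpr126 (chr10:14122391-14264842), known for its part in myelination by Schwann cells, had FPKM of 2.65 in the library labelled Mst1/2-deleted and 1.18 in the control library, a ratio of 2.25 (1.90 to 2.67). Gpr56 (chr8:97501009-97538108), which binds type III collagen and transglutaminase 2, had FPKM of 39.0 and 34.2, with a ratio of 1.14 (1.09 to 1.20). Of its ligand genes, Tgm2 had FPKM of 16.9 and 14.3 and Col3a1 0.746 and 1.39. Gpr116 (chr17:43526415-43596506), which restrains the surfactant pool in mouse alveolar type 2 cells, had FPKM of 32.9 and 24.3, with a ratio of 1.35 (1.31 to 1.40). Of 14 type 2 cell markers, all 14 lay above 0, the side on which most genes lay, and 1 was at least 1.5-fold higher. Their summed FPKM was 22292 and 18282, and the part of these cells in the value of Gpr116 was not tested. Gpr125 had FPKM of 2.07 and 2.12, and Gpr133 0.629 and 0.416.

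Both protease-activated receptors at the level are switched on by a tether that cleavage frees, and they lie 76.5 kb apart on chromosome 13. F2rl1 (chr13:96281684-96295195), the receptor cut by trypsin-like proteases, had FPKM of 12.8 in the library labelled Mst1/2-deleted and 8.02 in the control library, a ratio of 1.60 (1.44 to 1.78). F2r (chr13:96371744-96388388), the thrombin receptor gene, had FPKM of 7.37 and 6.997, with a ratio of 1.05 (0.941 to 1.18). The nearby F2rl2 was listed at 0.251 and 0.374. Of the membrane proteases known to act upstream of F2rl1, Prss8 (prostasin) had FPKM of 24.7 and 21.4 and St14 (matriptase) 6.96 and 7.53. Tissue factor, F3, which starts thrombin formation, had FPKM of 15.6 and 15.3.

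Of the 3 members lower by 1.5-fold, the one furthest apart was a lysophospholipid receptor. Lpar3 (chr3:145883925-145949178), a receptor for lysophosphatidic acid needed for embryo implantation in mice, had FPKM of 12.6 in the library labelled Mst1/2-deleted and 27.2 in the control library, 2.16-fold lower (1.98 to 2.35). By level it ranked 5 among the 49 genes in the library labelled Mst1/2-deleted and 3 in the control library. The other receptors for this lipid were lower in level: Lpar6 had FPKM of 1.87 and 2.00, Lpar2 0.715 and 0.771, and Lpar1 0.771 and 0.583. Lpar4 had 0.655 and 0.359, higher in the library labelled Mst1/2-deleted at a ratio of 1.82 (1.22 to 2.76). Lpar6 lies inside Rb1, which had FPKM of 4.69 and 3.18, and the tables do not give strand, so reads of the host can enter its value. Enpp2, which encodes the enzyme that makes lysophosphatidic acid outside cells, was listed at 0.144 and 0.283. Some markers of airway cells were lower in the same library: of 12 club cell markers at FPKM of 0.5 or more, 2 lay lower by 1.5-fold and 1 lay higher, with summed FPKM of 10475 and 12197 that leave out Scgb1a1; of 6 mucous markers 5 were lower, with sums of 10.1 and 31.4; and of 6 basal cell markers 3 were lower, with sums of 11.5 and 26.3. One basal marker, Pdpn, is also on the type 1 list. Of 10 ciliated cell markers at this level 3 were higher, with sums of 56.3 and 34.9. Leukocyte, endothelial and mesenchymal sums, given above, were also lower in the library labelled Mst1/2-deleted. The part of any of these cells in the value of Lpar3 was not tested.

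Of the receptors for sphingosine 1-phosphate, 1 passed 1.5-fold. S1pr2 (chr9:20770396-20781237), which acts through Gna12 and Gna13 among others, had FPKM of 2.88 in the library labelled Mst1/2-deleted and 1.55 in the control library, a ratio of 1.86 (1.47 to 2.35). S1pr1, the Gi-coupled receptor abundant in endothelium, had FPKM of 0.652 and 0.501, with a ratio of 1.30 whose interval (0.845 to 2.04) spans 1. S1pr3, S1pr4 and S1pr5 were under FPKM of 0.3 in both libraries. Sphk1, which encodes a kinase that makes this lipid, had FPKM of 7.79 and 2.10, with a ratio of 3.71 (2.93 to 4.68). Its relative Sphk2 had FPKM of 5.12 and 5.43, and Sgpl1, the lyase that breaks the lipid down, 5.90 and 5.55. The receptor and 1 of the kinases were thus both higher, while the other kinase and the lyase had close values.

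**Figure D3:**
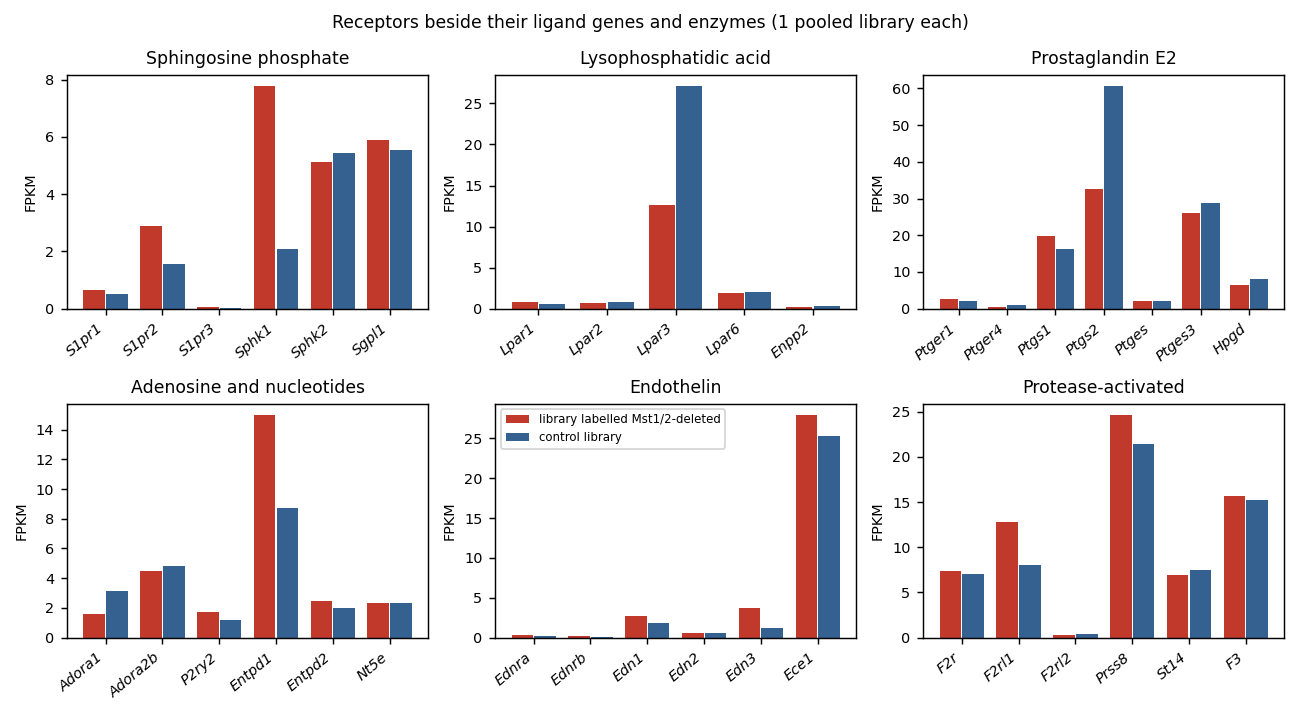
FPKM (linear axis from 0) of receptors beside genes of their ligands and ligand enzymes in the library labelled Mst1/2-deleted (red) and the control library (blue), with 1 pooled library each and no error bars. S1pr2 and Sphk1 are taller in red, and Lpar3, Ptgs2 and Adora1 are taller in blue.

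Of the 5 receptors past 1.5-fold with a promoter entry, the promoters that held a motif match are printed, with that of Lpar3, the gene furthest apart; those of Gpr126 and Gprc5b held none. They are the 250 bases before a transcript start, 5′ to 3′ on the gene's strand, from RefSeq on GRCm38.p6, a later build than the mm9 of the tables. Capitals mark matches on either strand to GGAATG (the core bound by TEAD factors, the partners of Yap and Taz), TGANTCA (AP-1), TGACGTCA (the cyclic AMP response element) or CTCAAG (a core bound by NKX2-1, a lung epithelial factor); no matches overlapped in these sequences.
S1pr2, chr9:20976794-20977043, minus strand: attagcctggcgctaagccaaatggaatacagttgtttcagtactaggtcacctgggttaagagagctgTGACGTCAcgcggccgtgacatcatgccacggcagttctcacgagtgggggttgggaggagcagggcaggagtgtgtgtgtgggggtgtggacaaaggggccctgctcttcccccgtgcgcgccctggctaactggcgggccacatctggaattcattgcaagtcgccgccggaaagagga
Adora1, chr1:134234857-134235106, minus strand: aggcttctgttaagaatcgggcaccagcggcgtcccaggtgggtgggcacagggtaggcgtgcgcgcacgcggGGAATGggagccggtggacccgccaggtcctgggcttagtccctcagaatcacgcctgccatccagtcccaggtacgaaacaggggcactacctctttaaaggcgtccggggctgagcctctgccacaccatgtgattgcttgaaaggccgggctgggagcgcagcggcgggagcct
Adora1, chr1:134235458-134235707, minus strand: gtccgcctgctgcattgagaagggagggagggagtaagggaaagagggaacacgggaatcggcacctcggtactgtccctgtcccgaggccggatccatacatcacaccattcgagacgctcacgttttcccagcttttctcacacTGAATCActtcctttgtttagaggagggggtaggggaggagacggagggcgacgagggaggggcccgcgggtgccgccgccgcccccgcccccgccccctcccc
Lpar3, chr3:146220711-146220960, plus strand: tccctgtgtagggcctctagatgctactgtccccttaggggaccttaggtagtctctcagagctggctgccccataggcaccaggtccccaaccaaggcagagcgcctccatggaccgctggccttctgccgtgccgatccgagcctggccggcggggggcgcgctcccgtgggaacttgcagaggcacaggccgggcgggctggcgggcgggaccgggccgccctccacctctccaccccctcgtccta
The S1pr2 promoter held 1 match to the cyclic AMP response element, which 1.55% of 32851 promoters of this length hold. The 2 Adora1 promoters held 1 match to the TEAD core and 1 match to AP-1, which 12.6% and 6.75% of promoters hold. Lpar3 held no match to the 4 motifs, and NKX2-1 matches stood in 13.3% of all promoters. Over the 55 promoters of 36 of the 49 genes, 4 held the TEAD core, 7 AP-1, 1 the cyclic AMP response element and 4 the NKX2-1 core. The 4 printed promoters had GC contents of 59.2%, 65.2%, 64.4% and 69.6% in the order given, against a median of 52.4% for all promoters. Gprc5a and F2rl1 were among the genes with no entry. A match is a description of letters and not a site.

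Receptors for adenosine and nucleotides were at low to middle levels. Adora1 (chr1:136095799-136132008), the Gi-coupled adenosine receptor, had FPKM of 1.59 in the library labelled Mst1/2-deleted and 3.11 in the control library, 1.95-fold lower (1.65 to 2.32). Both of its transcript entries were lower, at 0.318 and 0.698 for the longer and 1.28 and 2.41 for the shorter, and the shorter alone came to a log2 difference of -0.58, just short of 1.5-fold. The Adora1 locus overlaps that of Mybph, which had FPKM of 0.152 and 0.218. Adora2b (chr11:62062486-62079954), the Gs-coupled adenosine receptor and the highest of this class, had FPKM of 4.49 and 4.82, with a ratio of 0.931 (0.765 to 1.12). Adora2a was under FPKM of 0.1 in both. P2ry2, the ATP and UTP receptor that drives chloride secretion in airway epithelium, had FPKM of 1.70 and 1.18, and P2ry14, a receptor for UDP-glucose, 0.531 and 0.406. P2ry14 lies inside Med12l, which had FPKM of 0.305 and 0.379. On the enzyme side, Entpd1 (CD39), which strips phosphates from ATP, had FPKM of 15.0 and 8.71, with a ratio of 1.72 (1.59 to 1.87). Nt5e (CD73), which makes adenosine from AMP, had FPKM of 2.33 and 2.36.

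The prostaglandin E2 receptors at the level were Ptger1, which acts on calcium, and the Gs-coupled Ptger4. Ptger1 (chr8:86190539-86194002) had FPKM of 2.57 in the library labelled Mst1/2-deleted and 2.13 in the control library, a ratio of 1.204 (0.930 to 1.55). Its locus overlaps that of another listed gene, and without strand its reads may include those of the other gene. Ptger4 had FPKM of 0.396 and 1.04, 2.63-fold lower (1.68 to 4.28), on about 27 and 75 reads, and its log2 difference of -0.55 on the scale with the pseudocount stayed short of 1.5-fold. Of its 2 transcript entries, 1 had 0.396 and 0.562, and the other was near 0 and 0.480, so the estimate rests on how reads were shared between them. It reached the level through the control library only. Ptger2, Ptger3 and Ptgfr were under FPKM of 0.15 in both. Ptgs2 (cyclooxygenase 2), which starts prostaglandin synthesis, had FPKM of 32.5 and 60.8, 1.87-fold lower (1.79 to 1.95). Ptgs1 had FPKM of 19.8 and 16.3, Ptges3 26.0 and 28.9, Ptges 1.94 and 2.20, and Hpgd, which breaks prostaglandins down, 6.38 and 7.93.

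Among amine receptors, Adrb1, a receptor for noradrenaline and adrenaline, had FPKM of 1.02 in the library labelled Mst1/2-deleted and 1.49 in the control library, at a ratio of 0.683 (0.488 to 0.947). Alpha-adrenergic genes stayed under FPKM of 0.5, with Adra2a highest at 0.283 and 0.413. The muscarinic genes Chrm1, Chrm2, Chrm3 and Chrm4 were at or under FPKM of 0.105 in both libraries, and Chrm5 was listed at 0.

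Peptide receptors were all near the lower end. Calcrl (chr2:84170783-84265423), which forms the receptors for calcitonin gene-related peptide and adrenomedullin with RAMP partners, had FPKM of 0.833 in the library labelled Mst1/2-deleted and 0.939 in the control library, a ratio of 0.887 (0.677 to 1.18). Of the RAMP genes, Ramp1 had FPKM of 1.89 and 1.62, and Ramp2 and Ramp3 were under 0.5. Calca, whose gene encodes calcitonin gene-related peptide, had FPKM of 5.76 and 8.49. Since Calcrl and S1pr1 are abundant in endothelium, the endothelial markers are given beside them. The 3 at FPKM of 0.5 or more were Kdr, at 5.11 and 9.05, Pecam1, at 0.565 and 0.878, and Vwf, at 0.328 and 0.802, all with the lower value in the library labelled Mst1/2-deleted. The other 8 of 11 were under 0.5 in both libraries, among them Cdh5 at 0.475 and 0.425, and the part of endothelial cells in these values was not tested. Mc5r, the melanocortin receptor of exocrine glands, had FPKM of 0.379 and 1.002, 2.65-fold lower (1.28 to 5.72), on about 11 and 32 reads. Mc1r had FPKM of 0.528 and 0.662, and Gpr77, a C5a receptor that does not act through G proteins, 0.816 and 0.719. Endothelin receptors were below the level, with Ednra at 0.294 and 0.255 and Ednrb at 0.151 and 0.126, although their ligand gene Edn3 had FPKM of 3.71 and 1.21, with a ratio of 3.07 (2.42 to 3.91), and Edn1 2.67 and 1.84.

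Of the 8 orphan and other receptors, 0 passed 1.5-fold on the log2(FPKM + 1) scale. Gpr146 (chr5:139856621-139872368), the highest, had FPKM of 3.64 in the library labelled Mst1/2-deleted and 2.57 in the control library, a ratio of 1.42 (1.21 to 1.67). Gpr39, a zinc-sensing receptor, had FPKM of 2.02 and 3.38, 1.67-fold lower (1.34 to 2.08). Its locus overlaps that of Lypd1, whose FPKM was 0.114 or less in both libraries. Gpr157, an orphan receptor, had FPKM of 1.03 and 1.75, 1.71-fold lower (1.37 to 2.16). Gpr39 and Gpr157 both stayed short of 1.5-fold with the pseudocount. Gpr30, a receptor described for oestrogen, had FPKM of 1.27 and 0.765; it lies 26.8 kb from Gpr146, and both lie inside 3110082I17Rik, at FPKM of 2.40 and 2.50. Gpr160 had FPKM of 1.02 and 0.903, Gpr19 0.913 and 0.860, and Gpr153 0.712 and 0.501. Gpr21, at 0.565 and 0.583, lies inside Rabgap1, which was far higher at 5.96 and 5.66, so its value is uncertain.

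None of the 11 members that encode other proteins passed 1.5-fold. Ptgr1 (chr4:58978462-58999950), a reductase that inactivates prostaglandins and leukotriene B4, had FPKM of 10.9 in the library labelled Mst1/2-deleted and 13.1 in the control library, a ratio of 0.830 (0.742 to 0.927). Gpr108, a Golgi membrane protein, had FPKM of 9.52 and 8.88, with a ratio of 1.07 (0.945 to 1.22). Gpr155, a lysosomal membrane protein that senses cholesterol, had FPKM of 5.605 and 3.74, with a ratio of 1.498 (1.33 to 1.69). Gpr137b, another lysosomal membrane protein, had FPKM of 4.98 and 3.94 and its pseudogene Gpr137b-ps 5.97 and 4.35. In GENCODE transcripts 29.2% of the 47-base windows of Gpr137b also occur in Gpr137b-ps, so part of their reads can be exchanged. The remaining 6 (Gpr89, Gpr137, Gpr107, Ptgr2, Gpr180 and Gpr172b) had FPKM between 0.632 and 3.90.

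**Figure D4:**
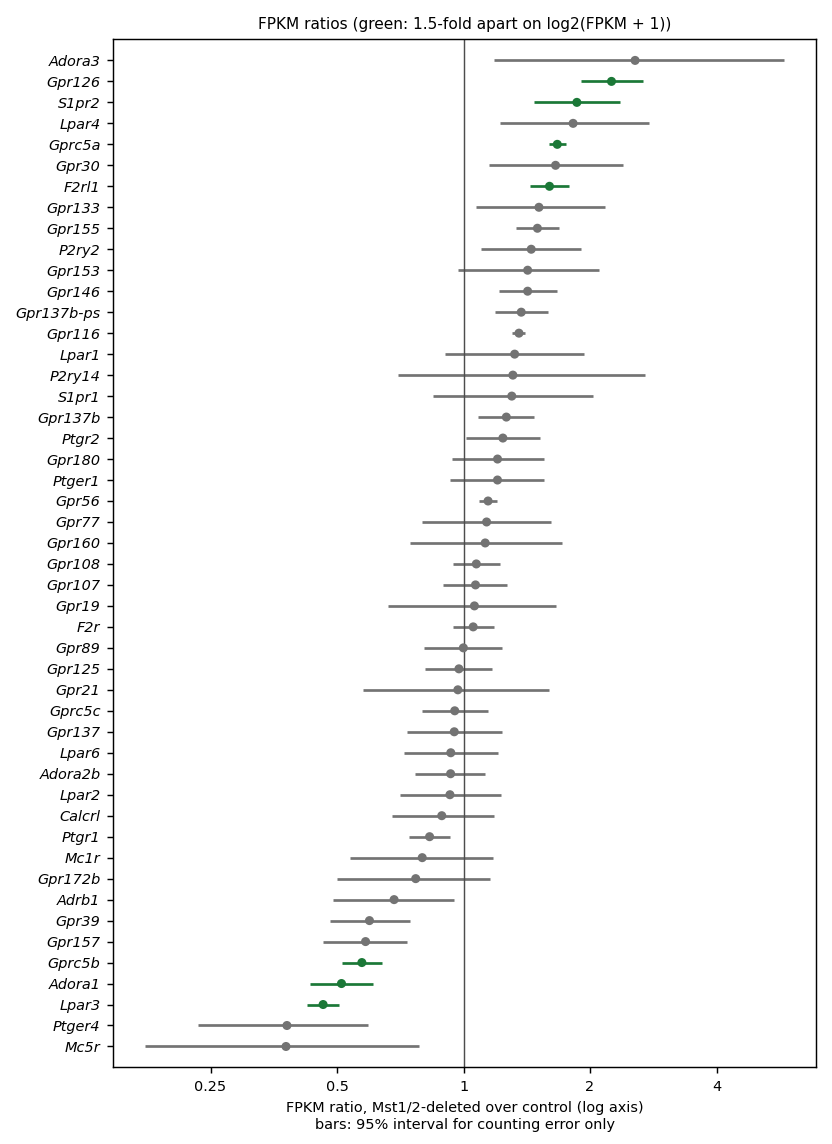
FPKM ratios of 48 of the 49 genes, library labelled Mst1/2-deleted over control (log axis), with bars for the 95% interval of counting error only and in green the 7 genes apart by 1.5-fold on the log2(FPKM + 1) scale. Gpr126, S1pr2, Gprc5a and F2rl1 lie between 1.60 and 2.25 and Gprc5b, Adora1 and Lpar3 between 0.463 and 0.573, while the widest bars belong to genes on few reads such as Adora3 and Mc5r.

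Genes near the level illustrate the choice. Just inside were P2ry14 (given above), Gpr21 (given above) and Gpr133. Just outside were Gpr4, at 0.460 in the library labelled Mst1/2-deleted and 0.402 in the control library, and Adra2a (given above). Of the 49 genes, Adora3, Gpr133, Lpar4 and P2ry14 reached the level only in the library labelled Mst1/2-deleted, and Ptger4 and Mc5r only in the control library, so these 6 had to differ in the direction they do. Of the 117 symbols under the level, 73 were under FPKM of 0.1 in both libraries and 27 were listed at 0 in both.

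Genes that pass on the signal of these receptors were also described. Of 16 G protein alpha subunit genes, 12 reached FPKM of 0.5 and 0 passed 1.5-fold, with a median log2 difference of 0.08. Gnas, the Gs subunit, was the highest at FPKM of 278 in the library labelled Mst1/2-deleted and 238 in the control library, followed by the Gi subunits Gnai2 (26.3 and 23.3) and Gnai3 (13.3 and 10.9) and the Gq family members Gnaq (9.99 and 9.68) and Gna11 (8.41 and 7.25). Gna13 had FPKM of 6.75 and 5.31 and Gna12 5.91 and 5.48. Of 8 beta and gamma subunit genes at the level 0 passed, with Gng5 highest at 110 and 129 and a median of -0.05.

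Receptor kinases and arrestins, which switch receptors off, were listed together with arrestin domain (Arrdc) genes, for which that role is not claimed. Of this joint list 11 reached FPKM of 0.5 or more, of which 0 passed 1.5-fold, with a median of 0.08. Arrdc1 was the highest, at FPKM of 19.0 in the library labelled Mst1/2-deleted and 16.6 in the control library. Arrb1 had 4.09 and 2.78 and Grk5 3.72 and 2.28, short of 1.5-fold on the log2(FPKM + 1) scale. Regulators of G protein signalling numbered 7 at the level, of which 0 passed, with a median of -0.09; Rgs2, which dampens Gq signalling, had 0.871 and 1.76. Adenylyl cyclases numbered 3, Adcy7 (6.05 and 4.38), Adcy6 (3.20 and 2.72) and Adcy9 (1.44 and 1.48), and the Gq effectors Plcb4 (4.19 and 4.34) and Plcb3 (3.89 and 3.22) were the phospholipase C beta genes at the level. The list of ligand genes and ligand enzymes had 24 at the level, with 3 higher (Sphk1, Edn3 and Entpd1, given above) and 1 lower (Ptgs2).

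Receptors of other symbol families were lower in level than the leading members. Of 88 such genes in the tables, 18 reached FPKM of 0.5, and Celsr1 was the highest, at 6.10 in the library labelled Mst1/2-deleted and 6.06 in the control library, before Cd97 (5.90 and 6.19), Lphn2 (2.91 and 3.21), Smo (2.29 and 2.64) and Celsr2 (1.45 and 2.67). Their median log2 difference was -0.10, with 0 higher and 2 lower by 1.5-fold. Glp1r, the glucagon-like peptide receptor gene, had FPKM of 0.148 and 1.52, 10.2-fold lower (4.43 to 34.8). Adcyap1r1, the receptor gene for the peptide PACAP, had 0.0799 and 0.799, 9.995-fold lower (5.503 to 19.7). On the log2(FPKM + 1) scale the differences were -1.13 for Glp1r and -0.74 for Adcyap1r1. Both genes reached FPKM of 0.5 only in the control library, so they had to be lower in the library labelled Mst1/2-deleted. Their ratios rest on values far under that level in the latter library.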

How the data were processed

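Per the submitters' processing notes, reads were processed with TopHat and Cufflinks on mm9; the sources used here give no versions, read length or strandedness. The authors deposited 1 table per library, with 28107 RefSeq transcript entries that hold FPKM, coverage (a signal, the mean read depth over the transcript) and length, per the file headers. Entries were joined by identifier, since their order differs between the tables, and FPKM was summed per symbol. Differences are log2(FPKM + 1), library labelled Mst1/2-deleted minus control. Start positions count from 0 (99.7% of 653 microRNA entries then span their stated length) and are printed raised by 1. Approximate reads are coverage times length over 47.1 bases, the median of values between 25 and 75 bases in genes with 1 entry; this read size is an assumption, and intervals (Clopper-Pearson on rounded reads, scaled to the FPKM ratio) cover counting error only, with amplified reads not independent. No count test was run. The fold rule and intervals were run on simulated counts drawn under the same counting error that the intervals assume. The simulation had no spread between mice and no amplified duplicates, so it cannot show how well the intervals hold for these data. All 49 genes matched RefSeq by accession, and 36 had promoter entries that could be shown. Named in full were the 10 highest genes, all past 1.5-fold and the highest of each class, and, of the partner lists, up to 5 of the highest and those past 1.5-fold; Rgs2, Arrb1, Grk5, Gna12, Gna13 and the ligand genes set beside their receptors were added with their values seen. A few genes that the rule names are not reported here. The members and lists were chosen with earlier results of these data known. Alternatives covered the pseudocount, the level, the scale, the entries used and the fold. Python 3.11.15, numpy 2.4.6, pandas 2.3.3, scipy 1.17.1 and matplotlib 3.10.9 were used.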

Additional observations from a re-analysis of the deposited data

How the results depend on the processing

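A smaller pseudocount can only widen a difference. The 7 genes past 1.5-fold (4 higher, 3 lower) therefore had to stay past it with the pseudocount at 0.1 or 0.5. Others joined them: there were 7 higher and 7 lower with 0.1, and 5 higher and 6 lower with 0.5. Conversion to TPM gave the same 7 higher and 7 lower genes as 0.1. TPM values are larger than FPKM here, so the added 1 weighs less, which makes this setting close to a smaller pseudocount. With the median of all genes set to 0 there were 2 higher and 4 lower, and with a fold of 2 there were 0 higher and 1 lower (Lpar3). With the highest entry per gene there were 5 higher and 2 lower, as Adora1 was no longer past 1.5-fold and Adora3 was. The counts of 4 and 3 were the same for a mean FPKM of 0.5, an FPKM of 2, no filter on low values, the 38 receptors alone and, chosen after seeing the data, Adora3 from its own entry. These settings could not change the counts. A gene under FPKM of 0.5 in both libraries cannot pass 1.5-fold with a pseudocount of 1, and the other settings left out only genes not past it. The median log2 difference stayed between 0.01 and 0.10 in the 11 alternatives in which it was computed. Of 65 alternative ratios of 13 named genes, 61 stayed within their counting intervals and 4 moved beyond them, 0 of these to the opposite direction. Many could not move: a doubled read length alters only the intervals, and leaving out failed entries removed none of these genes. The highest entry changed only Gpr56 and Adora1. All 4 moved when the libraries were rescaled. Within its interval F2r crossed 1, at a ratio of 0.994 with the median of all genes at 0, so 61 of 65 is no measure of stability. Leaving out transcripts under 300 bases, also chosen after seeing the data, the share of all genes past 1.5-fold was 4.5%. No paired analysis was possible because each genotype has 1 library, and none could be left out. Genes under FPKM of 1 rest on about 11 to 120 reads per library, which limits their ratios.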
